A study of Mus musculus with 20 samples.

Results

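The 9 genes described here encode secreted peptides and proteins of neurons, or the enzyme that cuts such peptides from their precursors, and are known for their link to neuronal activity. They are Vgf, Scg2, Chga, Chgb, Penk, Pcsk1, Nptx1, Nptx2 and Inhba, taken by gene symbol from the RNA-seq table of the series, in which all 9 of the 9 symbols were found among 21937. The table covers mouse neurons at day 10 of differentiation in culture, of the line with the strain label 159.2. One group of 2 libraries came from cultures given for 6 h 200 µM NMDA, which opens NMDA-type glutamate receptors; the other group of 2 came from cultures given only DMSO, the solvent, for 6 h. All cultures were washed in a balanced salt solution before and after the treatment. The labels do not say whether libraries of the same group are separate cultures. The p-values therefore measure the spread between libraries, and that spread may be technical.

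Neurons keep peptides in dense-core vesicles, which are released on strong stimulation. Granins such as chromogranin A, chromogranin B and secretogranin II pack these vesicles and are themselves cut into peptides. Prohormone convertases cleave the precursors at pairs of basic residues, and further enzymes trim and amidate the products. Neuronal pentraxins are secreted by another route and gather AMPA receptors at synapses, while activin A, a dimer of the Inhba product, acts through receptor kinases and Smad proteins. In brain tissue, transcripts of several of these genes are known to rise after seizures or strong synaptic activity, many of them later than the immediate early genes.

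The libraries held 20.1 M and 15.0 M reads for DMSO and 20.1 M and 16.8 M for NMDA (M, 1e+06), and levels are given as read counts normalised for depth. Of 13888 genes whose mean over the libraries reached 10 normalised counts, 20.5% rose and 21.5% fell at a limma adjusted p under 0.05, and the groups did not overlap in 74.5%. The shares that rose and fell were 7.62% and 6.54% without DMSO replicate 1, 10.1% and 9.62% without DMSO replicate 2, 21.8% and 24.0% without NMDA replicate 1, and 14.8% and 17.1% without NMDA replicate 2. Pan-neuronal markers were abundant in every library: Tubb3, a neuronal tubulin, had 25720 and 28109 normalised counts in DMSO and 26402 and 24096 in NMDA. Both Slc17a6, a glutamate transporter of vesicles (3965 and 3969 in DMSO), and Gad1, which makes GABA (5422 and 4354), were read. Other markers of these types were low or missed the mean of 10, which 8 of 12 glutamatergic and 7 of 12 GABAergic markers reached. Slc17a7 had 13.5 and 18.0 counts in DMSO, and Dlx1 had 3.59 and 1.2. Markers of other cell types were read as well. Of 17 fibroblast and mesenchyme markers 16 rose, with a summed level of 123246 to 134787 counts in DMSO and 248318 to 331720 in NMDA, and none was at 0 in all libraries. All 15 tested progenitor and radial glia markers rose (7 without DMSO replicate 1), with sums of 19498 to 22989 and 34071 to 46635. Of 9 astrocyte markers 7 rose (2 without DMSO replicate 1, 4 without DMSO replicate 2 and 4 without NMDA replicate 2), with sums of 10967 to 12175 and 14178 to 18043. Of 20 pan-neuronal markers 1 rose and 9 fell (4 falls without DMSO replicate 1 and 2 without DMSO replicate 2), with sums of 274952 to 285354 and 228800 to 257306. In these bulk libraries, fewer cells of a type and less RNA per cell cannot be told apart. The part of these shifts in the results below was not tested.

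Of the 9 genes, 2 rose after NMDA, Vgf and Penk, none fell, and 7 did not pass the test. That share of rises, 22.2%, lies near the 20.5% of all tested genes that rose. The counts were again 2 rises and 0 falls with edgeR on the recovered reads (21.3% and 20.1% of all genes it tested) and with DESeq2 (17.1% and 18.6%), and 0 of the 9 fell at an unadjusted p under 0.05 by limma, edgeR or DESeq2. The median log2 change of the 9 genes was 0.14, against -0.01 for all tested genes. The NMDA libraries lay above both DMSO libraries for 5 of the 9 genes, where 36.6% of all tested genes did so, and below both for 0, where 37.8% did so. The rises were 1 without DMSO replicate 2, and without NMDA replicate 1 there were 3 rises and 1 fall.

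**Figure D1:**
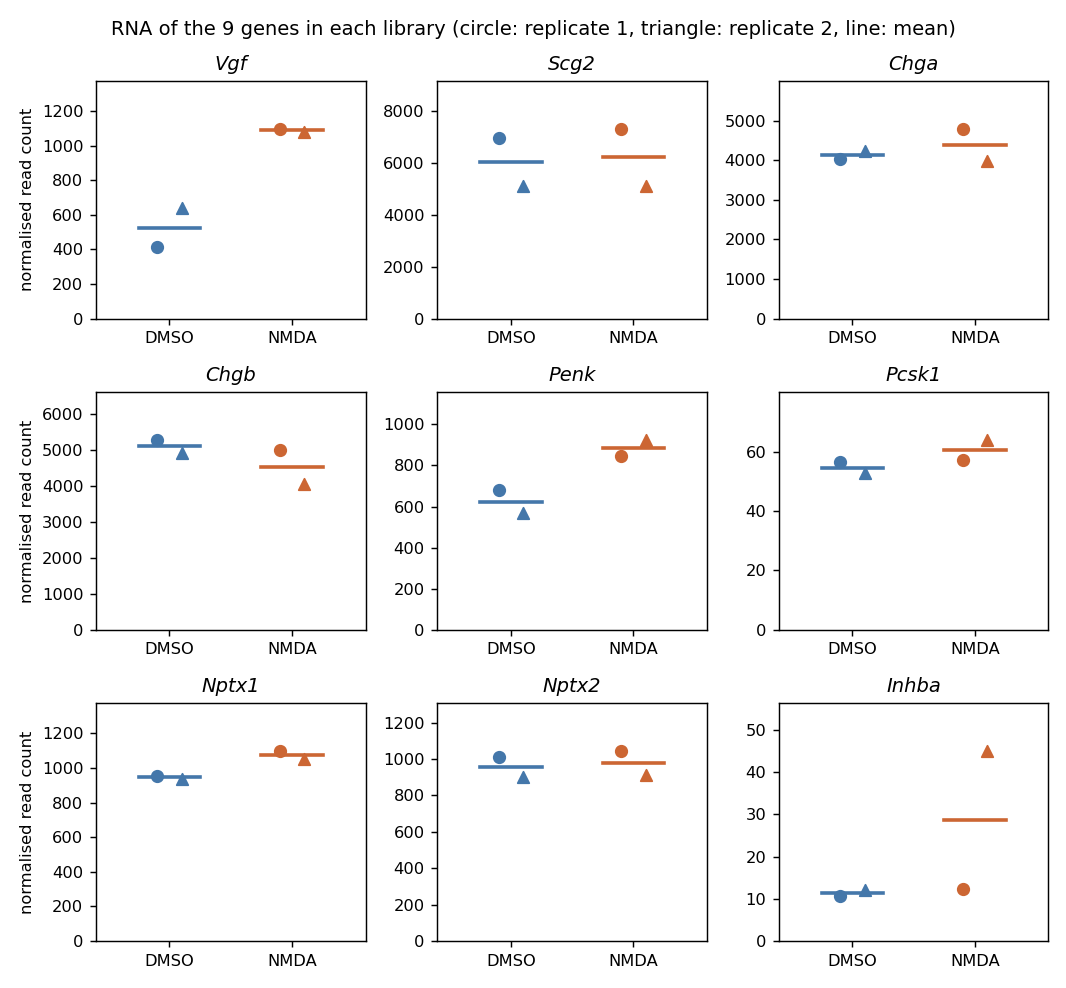
Normalised read count (vertical axis, from 0, a scale of its own in each panel) of the 9 genes in the DMSO and NMDA libraries; circles are replicate 1, triangles replicate 2 and lines the group means, n = 2 each. Vgf and Penk stand higher in both NMDA libraries, Scg2 differs more between replicates than between groups, and Inhba is high in NMDA replicate 2 alone.

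Vgf, which encodes a precursor of neuropeptides that is induced by growth factors and activity, was higher in both NMDA libraries. It had 412 and 637 normalised counts in the DMSO libraries and 1099 and 1077 in the NMDA libraries. The groups did not overlap, and the DMSO libraries lay further apart than the NMDA libraries. Means were 525 ± 159 and 1088 ± 15.5 (SD, n = 2 each), and the NMDA mean was higher on the log2 scale by 1.09 ± 0.18 (SE; 95% interval 0.68 to 1.49, limma adjusted p = 0.00227). Among all tested genes, 97.5% had a smaller log2 change. Leaving out 1 library at a time, the change ran from 0.77 to 1.40 on the log2 scale and kept its call each time.

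Penk encodes proenkephalin, the precursor from which the opioid peptides Met-enkephalin and Leu-enkephalin are cut. It had 679 and 566 normalised counts in DMSO and 845 and 925 in NMDA. Both NMDA libraries were above both DMSO libraries. The means were 623 ± 79.4 and 885 ± 56.4 (SD, n = 2 each), and the change on the log2 scale was 0.51 ± 0.11 (SE; 95% interval 0.26 to 0.77, limma adjusted p = 0.00775), or 1.43-fold. The call was lost without DMSO replicate 2 (log2 change 0.38, limma adjusted p = 0.0868) and held without each of the other libraries.

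The granin genes gave no call. Scg2, the gene of secretogranin II, from which the peptide secretoneurin is cut, had 6943 and 5092 normalised counts in DMSO and 7324 and 5128 in NMDA. The groups overlapped almost fully, and replicate 1 was the higher library in both. Its log2 change of 0.04 ± 0.18 (SE; limma adjusted p = 0.869) had a 95% interval of -0.38 to 0.46, which corresponds to 0.77-fold to 1.38-fold. Without NMDA replicate 1 the sign turned, to -0.21, and without DMSO replicate 2 it was -0.18.

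Chga, the gene of chromogranin A, had 4026 and 4239 normalised counts in DMSO and 4799.5 and 3987 in NMDA. The NMDA libraries lay on either side of the DMSO libraries. The log2 change was 0.08 ± 0.10 (SE; 95% interval -0.15 to 0.32, limma adjusted p = 0.55), and -0.051 without NMDA replicate 1. Chgb, the gene of chromogranin B, had 5288 and 4929 counts in DMSO and 4994 and 4042 in NMDA. It was the one gene of the 9 with a negative log2 change, -0.18 ± 0.11 (SE; 95% interval -0.44 to 0.07, limma adjusted p = 0.213), and the groups overlapped. Leaving out NMDA replicate 1 gave -0.34 with a call (limma adjusted p = 0.0123), and leaving out NMDA replicate 2 gave -0.03 without one. These intervals leave out a 2-fold rise for Scg2, Chga and Chgb, which had between 3540 and 8343 reads in every library.

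Granins are also markers of neuroendocrine cells, so markers of such cells were counted. Of 14 such markers, 6 passed the filter on low values, of which 4 rose and 0 fell by limma (1 fall at an unadjusted p under 0.05, and 0 by edgeR or DESeq2). Their summed level was 158 to 161 normalised counts in DMSO and 251 to 335 in NMDA. The defining genes of chromaffin and islet cells were at or near 0: Dbh had 0 in 3 libraries and 2.63 counts in NMDA replicate 1, and Pnmt, Ins1 and Ins2 had at most 1 read in any library. Rises in this list numbered 2 without NMDA replicate 1, 1 without DMSO replicate 2 or NMDA replicate 2, and 0 by limma without DMSO replicate 1 (4 at an unadjusted p under 0.05).

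**Figure D2:**
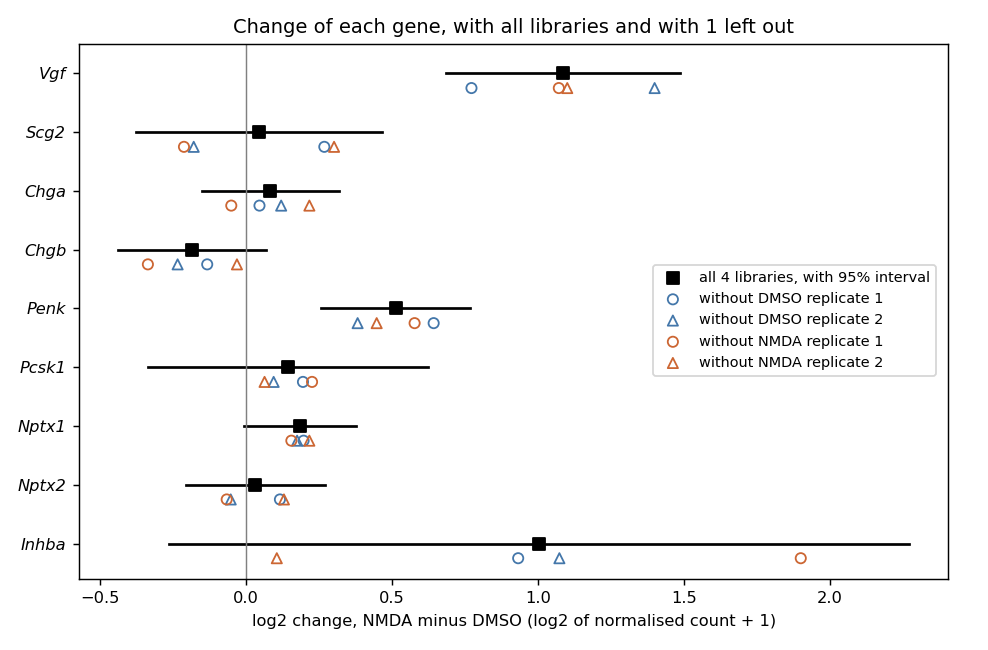
Log2 change of each gene after NMDA (horizontal axis, NMDA minus DMSO on the log2 scale of the normalised count + 1): black squares with bars are the fit to all 4 libraries with its 95% interval, open symbols the same fit with 1 library left out. The intervals of Vgf and Penk lie above 0, and the value for Inhba runs from 0.10 without NMDA replicate 2 to 1.90 without NMDA replicate 1.

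Pcsk1 encodes prohormone convertase 1/3, which makes the first cuts in proenkephalin, the granins and the Vgf precursor. Its values were low, at 56.6 and 52.7 normalised counts in DMSO and 57.1 and 64.0 in NMDA, from 44 to 65 reads per library. The NMDA libraries were the higher ones, by less than 1 count at the closest. The log2 change was 0.14 ± 0.21 (SE; 95% interval -0.34 to 0.62, limma adjusted p = 0.611), and -0.037 with quantile normalisation. That interval corresponds to 0.79-fold to 1.54-fold.

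Nptx1 and Nptx2, which encode neuronal pentraxins 1 and 2 (the latter also called Narp), moved little. Nptx1 had 953 and 939 normalised counts in DMSO and 1099 and 1053 in NMDA. Its groups did not overlap and its replicates lay close together. The log2 change of 0.19 ± 0.08 (SE; 95% interval -0.01 to 0.38) missed the threshold (limma adjusted p = 0.108) and passed it with quantile normalisation (log2 change 0.24, limma adjusted p = 0.0476). Nptx2 had 1014 and 902 counts in DMSO and 1046 and 913 in NMDA. Its groups overlapped, with replicate 1 the higher library in each, and the log2 change was 0.03 ± 0.10 (SE; 95% interval -0.21 to 0.27, limma adjusted p = 0.834). That value was -0.067 without NMDA replicate 1 and -0.053 without DMSO replicate 2. For both pentraxins, the 95% interval stayed below a 1.5-fold rise, at 1.30-fold for Nptx1 and 1.20-fold for Nptx2.

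Inhba, which encodes the activin beta A subunit, was the lowest of the 9 in counts, and its NMDA mean rested on 1 library. It had 10.8 and 12.0 normalised counts in DMSO and 12.3 and 45.1 in NMDA. Only NMDA replicate 2 was high. In reads these were 12 and 10 against 14 and 43, and the exact Poisson 95% interval was 7.65 to 23.5 reads for NMDA replicate 1 and 31.1 to 57.9 for NMDA replicate 2, which covers counting error only. The log2 change was 1.00 ± 0.55 (SE; 95% interval -0.27 to 2.27, limma adjusted p = 0.178). Without NMDA replicate 2 it was 0.10 (limma adjusted p = 0.882) and without NMDA replicate 1 it was 1.90 (limma adjusted p = 0.0062). edgeR with no filter on low counts called a rise (adjusted p = 0.0304), and edgeR with its filter did not (adjusted p = 0.114). The summed fibroblast markers were also highest in NMDA replicate 2, at 331720 counts against 248318 in NMDA replicate 1, and so were the progenitor markers, at 46635 against 34071; their part in the Inhba value was not tested. Another gene model, B230303A05Rik, overlaps Inhba in the RefSeq annotation and has no row of its own, so some of these reads may come from it.

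Promoters of granin and convertase genes are known for cAMP response elements, the sites bound by CREB, a factor that calcium signals activate in neurons. RefSeq promoter entries (GRCm38.p6) matched 5 of the 9 genes, Scg2, Chga, Chgb, Pcsk1 and Inhba. The 250 bases before the start of each were searched on both strands. For Pcsk1 and Inhba, that stretch overlapped the annotated span of the same gene, whose longer model starts further upstream. The full palindrome TGACGTCA was found in 3 of the 5, where 1.55% of 32851 promoter windows of the same length held it. Its core TGACG, which lies inside the palindrome, was found in 4 of the 5, against 17.8%. Those windows include genes not tested here: of 9787 tested genes with an entry, 301 held the palindrome and 2951 the core. The palindrome began 68 bases before the start in Scg2, 72 in Chgb and 78 in Pcsk1, while Chga had the core alone, 44 bases before its start. No entry matched Vgf or Penk, the genes called, so all 5 genes searched were without a call whatever their sequence. The absence of a call therefore says nothing about the element. The sequences of the 4 genes with the palindrome or core are shown, 5′ to 3′ on the strand of the gene. Capitals mark the palindrome or core. The stretches end at the base before the start, except for Pcsk1, where 30 bases around the palindrome are given.

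Scg2 (chr1:79440027-79440176, minus strand): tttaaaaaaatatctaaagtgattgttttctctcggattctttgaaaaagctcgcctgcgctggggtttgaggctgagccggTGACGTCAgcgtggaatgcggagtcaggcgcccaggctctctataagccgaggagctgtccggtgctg
Chgb (chr2:132781492-132781641, plus strand): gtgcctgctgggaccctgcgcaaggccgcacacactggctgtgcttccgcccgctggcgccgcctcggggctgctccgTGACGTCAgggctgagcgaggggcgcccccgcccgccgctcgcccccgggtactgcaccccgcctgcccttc
Chga (chr12:102554791-102554940, plus strand): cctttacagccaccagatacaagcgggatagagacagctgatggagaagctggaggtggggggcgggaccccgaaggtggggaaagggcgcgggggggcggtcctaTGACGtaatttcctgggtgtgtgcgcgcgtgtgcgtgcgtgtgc
Pcsk1 (chr13:75089768-75089797, plus strand): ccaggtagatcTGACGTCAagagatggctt

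Inhba had no match to TGACG in its window. Matches to an AP-1 site, TGANTCA, were found in 0 of the 5 (6.75% of all windows), and to an Egr site, GCGNGGGCG, in 1 of the 5, Chgb (4.70% of all windows). These letters describe the sequence and do not show that a factor was bound. The 3 genes with the palindrome had log2 changes of 0.04, -0.18 and 0.14, and none passed the test, which held for all 5 genes searched. Of the 301 tested genes with the palindrome in this window, 17.3% rose and 24.6% fell, against 20.7% and 21.8% of the 9787 tested genes with a promoter entry.

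The genes around the peptides are given next, first those that process and store them. Of 26 other granins, processing enzymes and dense-core vesicle genes, 6 rose and 4 fell (23.1% and 15.4%, against 20.5% and 21.5% of all tested genes), with a median log2 change of -0.13. Pam, the gene of the enzyme that amidates peptides, had 1195 ± 74.6 normalised counts in DMSO and 2147 ± 15.0 in NMDA (SD, n = 2 each), which is a rise of 0.85 ± 0.08 on the log2 scale (SE, adjusted p = 0.000703 by limma). Rab3d, a GTPase of secretory vesicles, rose by 0.98 ± 0.12, and Pcsk6, a convertase of the constitutive pathway, by 0.76 ± 0.16 on the log2 scale. Ccdc186, which is needed for the sorting of dense-core vesicle cargo, fell by 1.02 ± 0.11. Without DMSO replicate 2 there were 3 rises and 1 fall, without DMSO replicate 1 there was 1 fall and without NMDA replicate 1 there were 10 falls. The median was 0.01 without NMDA replicate 2 and -0.26 without NMDA replicate 1.

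**Figure D3:**
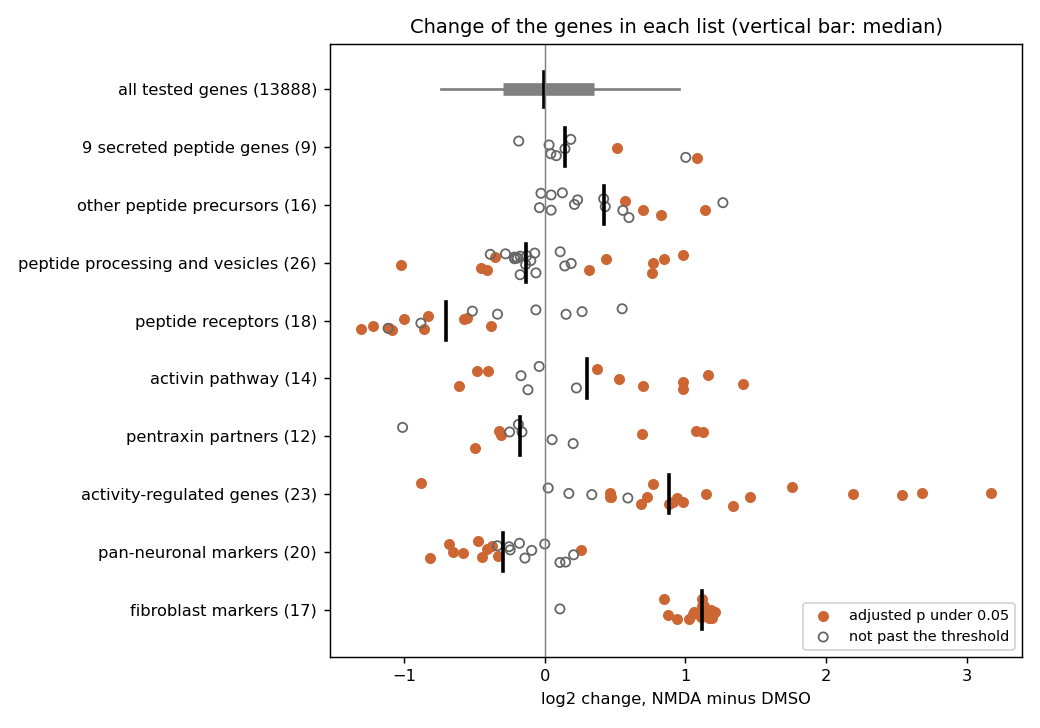
Log2 change after NMDA (horizontal axis) of each tested gene in the lists named at the left, with the number of tested genes in brackets; filled points passed a limma adjusted p of 0.05, open points did not, and the black bar is the median of the list. The top row gives all tested genes, the thick bar from the 25th to the 75th percentile (-0.29 to 0.35) and the thin line from the 5th to the 95th; peptide receptors lie mostly below 0.

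Among 34 other genes of neuropeptides and peptide hormones, 16 passed the filter on low values, of which 4 rose and 0 fell by limma (0 falls at an unadjusted p under 0.05, and 0 by edgeR or DESeq2). The share of rises, 25.0%, lies near the 20.5% of all tested genes. The median log2 change of the 16 was 0.42. Nppc, the C-type natriuretic peptide gene, went from 101 and 93.4 to 246 and 189.9 normalised counts, a rise of 1.14 ± 0.17 on the log2 scale (SE, adjusted p = 0.00174 by limma). Npy, the neuropeptide Y gene, went from 143 and 137 to 255 and 242 (0.83 ± 0.13). Igf1, a growth factor gene, rose by 0.70 ± 0.13, and Pnoc, the gene of the nociceptin precursor, by 0.57 ± 0.14 on the log2 scale. Without DMSO replicate 2 there were 2 rises, and without NMDA replicate 2 the median was 0.23.

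Of 23 receptors for opioids and other peptides, 18 were tested, and 10 fell while 0 rose by limma (0 rises at an unadjusted p under 0.05, and 0 by edgeR or DESeq2). The share of falls was 55.6%, where 21.5% of all tested genes fell, and the median log2 change was -0.70. Oprl1, the nociceptin receptor gene, went from 1929 and 1681 to 869 and 686 normalised counts, a difference of -1.22 ± 0.13 on the log2 scale (SE, adjusted p = 0.000703 by limma). Oprd1, the gene of the delta opioid receptor, on which enkephalins act, went from 75.4 and 75.4 to 30.7 and 39.9 counts (log2 change -1.09 ± 0.23, limma adjusted p = 0.00694). Oprm1, the mu opioid receptor gene, named here for its role after its values were seen, went from 81.7 and 81.4 to 43.9 and 47.2 (log2 change -0.83 ± 0.20, limma adjusted p = 0.0121). Sstr2 and Tacr1, receptors for somatostatin and substance P, fell by 1.00 ± 0.19 and 0.86 ± 0.12. With either DMSO library left out, most of these falls no longer passed, and the share of falls lay closer to that of all tested genes. DESeq2 on all libraries called 4 falls, where 18.6% of all genes it tested fell. The medians with 1 library left out ran from -0.82 to -0.62. Pan-neuronal markers had a median of -0.29 in the same libraries (-0.16 without NMDA replicate 2), and their part in these falls was not tested.

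The list of the activin pathway besides Inhba holds ligands, receptors, antagonists and effectors. Of its 14 tested genes, 7 rose and 3 fell (against 20.5% and 21.5% of all tested genes), with a median log2 change of 0.30. Inhbb, which encodes the activin beta B subunit, went from 54.8 and 63.5 normalised counts to 114 and 154, a rise of 1.16 ± 0.21 on the log2 scale (SE, adjusted p = 0.00344 by limma), and was higher in both NMDA libraries. Tgfbr3, a coreceptor that binds inhibin, rose by 0.98 ± 0.19. The type II receptor gene Acvr2a fell by 0.48 ± 0.09 and Smad2, which carries the signal to the nucleus, by 0.61 ± 0.09 on the log2 scale. The other rises were Fst, Bambi, Smad3, Smad6 and Smad7, and the other fall was Acvr1b, all named after their values were seen. Rises numbered 2 without DMSO replicate 1 and 4 without DMSO replicate 2, and falls 1 without DMSO replicate 1.

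Of 12 tested partners of the pentraxins, 3 rose and 3 fell (25.0% each, near the 20.5% and 21.5% of all tested genes), with a median log2 change of -0.17. Adam17, a protease that cleaves the neuronal pentraxin receptor, went from 343 ± 12.6 to 725 ± 38.9 normalised counts (SD, n = 2 each; log2 change 1.08 ± 0.10, limma adjusted p = 0.000698), and Ptx3, a pentraxin of innate immunity, rose by 1.12 ± 0.29. The AMPA receptor gene Gria4 fell by 0.31 ± 0.08 and Cacng2, an AMPA receptor auxiliary subunit gene, by 0.49 ± 0.10 on the log2 scale. The receptor gene Nptxr itself, named here for its role after its values were seen, was low, at 24.2 and 20.4 counts in DMSO and 13.2 and 8.39 in NMDA, and missed the threshold (limma adjusted p = 0.0642). By limma there were 1 rise and 0 falls without DMSO replicate 1 (4 and 2 at an unadjusted p under 0.05) and 1 rise and 0 falls without DMSO replicate 2 (2 and 2). Without NMDA replicate 1 there were 5 falls. DESeq2 on all libraries gave 1 rise and 4 falls. The median was -0.03 without DMSO replicate 1.

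Immediate early and other activity-regulated genes were read in the same libraries. Of 23 tested, 18 rose and 1 fell (78.3% and 4.35%), with a median log2 change of 0.88, and the rises were 10 without DMSO replicate 1. Of all tested genes, 20.5% rose and 21.5% fell, and DESeq2 called 15 rises in this list. Npas4, an activity-dependent transcription factor gene, had the largest change of this list, 3.17 ± 0.17, followed by the AP-1 gene Fosb with 2.68 ± 0.22 on the log2 scale. Nfil3 was the gene that fell (log2 change -0.88), and Arc, Homer1, Ier2 and Crem missed the threshold. These were named after their values were seen. Among the 9 peptide genes, the log2 changes of Vgf (1.09) and of Inhba (1.00, not past the threshold) exceeded this median, and that of Penk (0.51) and the other 6 did not.

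The genes whose values followed Vgf and Penk most closely were sought over the 4 libraries, among 11163 named genes with a mean of at least 50, by the Euclidean distance of log2 values centred on their mean. Nearest to Vgf were Cox17 (distance 0.15), a copper chaperone gene, with 83.5 and 144 normalised counts in DMSO and 215 and 230 in NMDA, and Gnpda1 (0.22). Nearest to Penk were Ammecr1 (0.03), with 53.9 and 45.5 counts in DMSO and 67.6 and 75.5 in NMDA, and Zfp52 (0.04), and neither of these passed the test (limma adjusted p = 0.0818 and 0.123). Each of these likenesses rests on 4 values.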

How the data were processed

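RNA-seq of day 10 neurons was analysed for 2 DMSO and 2 NMDA libraries, grouped by sample title. The authors deposited a signal per gene symbol, read counts divided by 1 scaling factor per library. Per the submitters' processing notes, the build was mm9 and the tools TopHat, Bowtie, HTSeq and DESeq; the sources used here give neither their roles and versions nor the annotation or strandedness. Whole reads were recovered from the steps of the values (99.97% to 100% whole within 0.0051). The merged chromatin tables were not used here, since their regions carry no gene or position.

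The test was limma-trend (2-sided; limma 3.58.1 in R 4.3.3) of group alone, fitted to log2(value + 1) of all 13888 genes with a mean of 10 or more, and p-values were adjusted over them by the Benjamini-Hochberg method. Fold changes on that scale understate those of low genes. edgeR 4.0.16 (quasi-likelihood) and DESeq2 1.42.0 on the recovered reads, other pseudocounts, filters and scalings, a replicate block and each library left out were alternatives. The fit was run on simulated counts, drawn independently for each library with the same spread setting for all genes. That simpler setting cannot show how the fit behaves on these libraries. The 9 genes and the lists were chosen with earlier results of these data known. Every gene of the 9 is named. From each other list, up to 4 with the smallest p past the threshold could be named, and for Vgf and Penk the 2 nearest genes. Of 11 genes for RNA quality, 7 were matched and 1, Actb, rose by limma (3 at an unadjusted p under 0.05, 2 by edgeR and 3 by DESeq2). GABAergic markers gave 2 falls of 7 and 0 rises by limma (0 at an unadjusted p under 0.05; 0 by edgeR or DESeq2), and glutamatergic markers 1 fall of 8 and 0 rises by limma (2 at an unadjusted p under 0.05; 1 by edgeR and 0 by DESeq2). Levels were not compared between genes, for want of transcript lengths. Of the list symbols not in the table, Map2, Hid1 and Ccdc186 were matched by an older symbol.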

Additional observations from a re-analysis of the deposited data

How the results depend on the processing

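Over all genes, the rises with 1 library left out ran from 1060 to 3031 and the falls from 910 to 3335, the lowest without DMSO replicate 1; among the 9 genes they ran from 1 to 3 and from 0 to 1. Vgf kept its rise in all 14 alternatives (log2 change 0.77 to 1.40, largest adjusted p = 0.0207 by limma), and Penk in 13 of 14. With 1 library left out, signs turned for Scg2 (log2 change -0.21 to 0.30; -0.18 without DMSO replicate 2 and -0.21 without NMDA replicate 1), Nptx2 (-0.067 to 0.13; -0.053 and -0.067 without the same libraries) and Chga (-0.051 to 0.22; -0.051 without NMDA replicate 1), and with quantile normalisation for Pcsk1 (-0.037), none of them called there. The labels give both groups replicates 1 and 2, but nothing says that a number marks a shared culture or day. The deviations of same-numbered libraries correlated at 0.34 over 13888 genes. With the replicate number as a block, fitted by limma only, there were 3685 rises and 3782 falls over all genes. Among the 9 genes there were then 3 rises, with Inhba called (limma adjusted p = 0.0182), and 0 falls. Chgb was at an unadjusted p = 0.0341 (limma) with the block. Without the block, edgeR and DESeq2 gave 0 falls among the 9 genes. The cause of these shifts was not tested. Depth was lowest for Inhba, with 10 to 43 reads per library, and next for Pcsk1, with 44 to 65.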
